A study of Homo sapiens with 38 samples.

Results

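The genes described here are 9 integrin and adhesion genes of T cells, ITGA4, ITGAL, ITGB1, ITGB2, ITGB7, CD44, SPN, SELPLG and ICAM3, out of 20037 protein-coding genes. Each gene was taken as its RefSeq record on GRCh38 with 50 kb added on each side, called its window, and every region that touched a window by at least 1 bp was kept. The rule uses gene names and positions, and no measured value, but the members were chosen with earlier results of these data known. Their windows held 62 of 29009 regions listed for the transcription factor GATA3, 68 of 26205 listed for the transcription factor BHLHE40, and 166 of 113570 listed for H3K27ac, acetylation of histone H3 at lysine 27.

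The cells were Jurkat, an established human line of T-cell acute lymphoblastic leukaemia (T-ALL in the labels), grown as a culture of a single cell line. Proteins were crosslinked to DNA, pulled down with an antibody and the attached DNA sequenced (ChIP-seq), and places with more reads than their surroundings were listed as regions. All 3 groups used here had the genotype Ctrl_LV, a control lentivirus in otherwise unedited Jurkat cells, and were stimulated with 50 ng/ml of PMA plus 500 ng/ml of ionomycin, drugs that stand in for signals of the T-cell receptor. The sample labels give 5 h of stimulation and the protocol 2 h. Each group had 2 samples but 1 list, so no value has a spread between samples and no test was possible. The depth of the samples is unknown. Of 38 samples in 19 groups, the 32 samples of the other 16 groups, among them edited and BHLHE40 over-expressing cells, were not analysed here. A listed region shows where signal was called, and not how much RNA or protein a gene makes.

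Integrins are pairs of an alpha and a beta subunit that T cells use to grip other cells and matrix. The product of ITGA4 pairs with that of ITGB1 to bind VCAM1 and fibronectin, or with that of ITGB7 to bind MADCAM1 in the gut, and ITGAL pairs with ITGB2 to form LFA-1, the receptor for ICAM proteins such as ICAM3. CD44 is a receptor for hyaluronan, SPN (CD43) is a large sialomucin of the leukocyte surface, and SELPLG (PSGL-1) is the ligand on leukocytes for P-selectin. GATA3 is a zinc-finger factor needed for T-cell development, BHLHE40 is a basic helix-loop-helix factor that binds E-box DNA, and H3K27ac marks active promoters and enhancers.

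The bases just before the start of transcription are shown for the members with an entry in the RefSeq promoter table (GRCh38.p14), because the starts are where the members fell into different classes. They read 5′ to 3′ on the strand of the gene. In ITGB1 (chr10:32958231-32958480, minus strand) and ICAM3 (chr19:10339625-10339874, minus strand) the capitals mark 21 bases centred on the BHLHE40 summit, the position of strongest signal in a region. In ITGB7 (chr12:53207252-53207501, minus strand) they mark 2 matches to a GATA motif. CD44 (chr11:35138921-35139170, plus strand) and ITGA4 (chr2:181457136-181457204, plus strand) carry no marked bases. For ITGA4 the 181 bases nearest the listed start lie inside the gene record and are left out. The table had no entry for ITGAL, ITGB2, SPN or SELPLG.
ITGA4: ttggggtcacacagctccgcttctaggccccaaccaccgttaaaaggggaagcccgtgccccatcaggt
ITGB1: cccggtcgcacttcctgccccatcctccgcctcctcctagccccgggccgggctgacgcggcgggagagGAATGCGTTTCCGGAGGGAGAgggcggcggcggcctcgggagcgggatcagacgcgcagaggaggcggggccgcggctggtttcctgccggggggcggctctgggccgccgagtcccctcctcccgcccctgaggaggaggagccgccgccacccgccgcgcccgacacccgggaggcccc
CD44: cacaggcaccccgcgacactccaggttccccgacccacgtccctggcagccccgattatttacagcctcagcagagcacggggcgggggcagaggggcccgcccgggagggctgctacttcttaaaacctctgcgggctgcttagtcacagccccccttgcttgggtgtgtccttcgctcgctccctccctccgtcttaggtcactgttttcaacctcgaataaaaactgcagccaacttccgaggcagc
ITGB7: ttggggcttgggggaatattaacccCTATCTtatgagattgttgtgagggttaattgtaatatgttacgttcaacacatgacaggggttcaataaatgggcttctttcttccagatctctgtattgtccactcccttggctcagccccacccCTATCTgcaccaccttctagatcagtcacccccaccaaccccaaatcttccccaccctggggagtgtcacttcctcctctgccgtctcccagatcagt
ICAM3: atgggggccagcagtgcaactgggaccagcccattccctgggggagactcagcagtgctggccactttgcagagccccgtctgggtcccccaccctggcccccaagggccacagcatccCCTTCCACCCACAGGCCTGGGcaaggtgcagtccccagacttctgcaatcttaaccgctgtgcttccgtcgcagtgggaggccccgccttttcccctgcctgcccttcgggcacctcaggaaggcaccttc

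The BHLHE40 summit lay 171 bases before the start of ITGB1 and 121 bases before that of ICAM3. Neither promoter held the E-box CACGTG on either strand within its 250 bases. That E-box was present in 6.46% of 27305 RefSeq promoters of the same length, in 12.5% of the 4504 with a BHLHE40 summit inside and in 5.28% of the rest. The ITGB7 promoter held AGATAG on the opposite strand at 225 and 98 bases before the start, which reads CTATCT in the printed strand. The GATA motif, searched as AGATAA or AGATAG and as the same letters with T in place of the first A, was present on either strand in 23.0% of promoters. It was present in 25.3% of the 1148 promoters with a GATA3 summit inside and in 22.9% of the rest. The other 4 members with an entry held no GATA motif in their 250 bases. No match to TGTGGT (a RUNX motif, in 11.1% of promoters), CCGGAAGT (an ETS core, in 3.64%) or TGANTCA (an AP-1 motif, in 6.57%) was found in the 5 members' promoters. The share of G and C ran from 49.6% in ITGB7 to 78.4% in ITGB1 over these 250 bases. A match or its lack describes these letters only.

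Most of the members lay among many listed regions. At least 1 GATA3 region was found in the windows of 8 of 9 members, against 76.1% of protein-coding genes. At least 1 BHLHE40 region was found for 9 of 9, against 80.0%, and at least 1 H3K27ac region for 9 of 9, against 92.6%. The median window of a member held 5 GATA3, 7 BHLHE40 and 15 H3K27ac regions, and that of a protein-coding gene 2, 2 and 8. The members' records were longer, with a median of 42863 bp against 24115 bp, but the order was the same per length. Per 100 kb of window the members had a median of 3.99 GATA3, 6.04 BHLHE40 and 13.0 H3K27ac regions, against 0.992, 1.62 and 5.90 over protein-coding genes. H3K27ac regions covered 2.96% (ITGB1) to 9.39% (ITGAL) of the members' windows, with a median of 5.97%, against 2.29% over protein-coding genes.

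**Figure D1:**
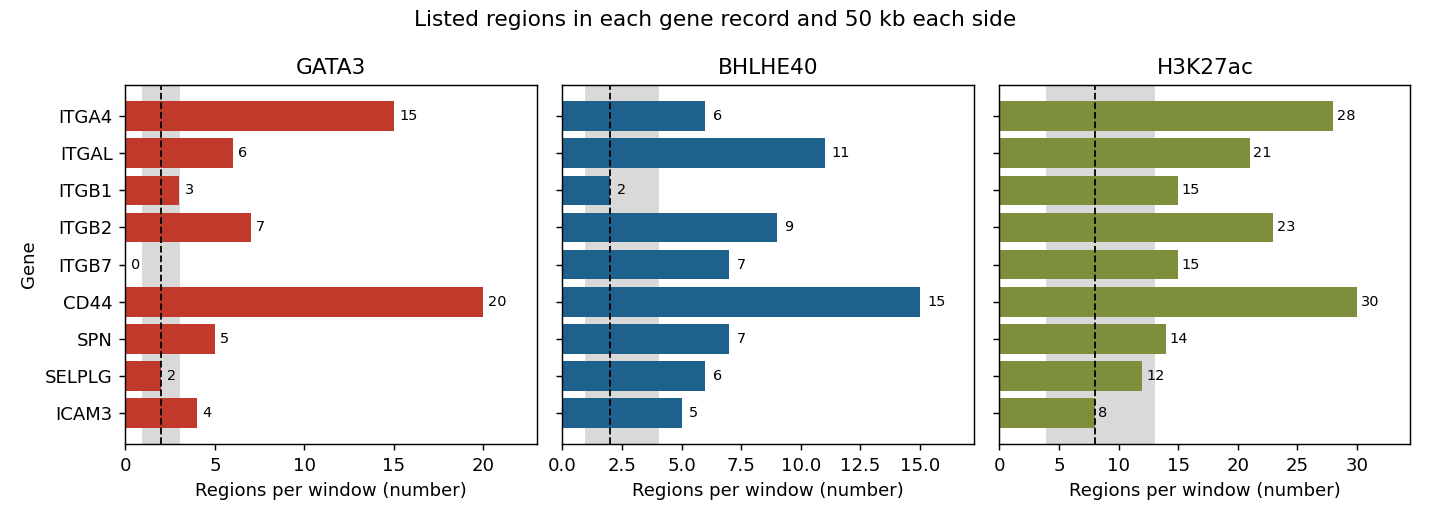
Number of listed GATA3, BHLHE40 and H3K27ac regions (horizontal axis) in the window of each gene, with the median (dashed line) and the quartiles (grey band) over 20037 protein-coding genes. CD44 has the longest bar in each panel, with 20, 15 and 30 regions, and ITGB7 has no GATA3 region.

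The bar plot of regions per window shows how uneven the members were. For GATA3 the counts were 20 at CD44, 15 at ITGA4, 7 at ITGB2, 6 at ITGAL, 5 at SPN, 4 at ICAM3, 3 at ITGB1, 2 at SELPLG and 0 at ITGB7. For BHLHE40 they were 15 at CD44, 11 at ITGAL, 9 at ITGB2, 7 each at ITGB7 and SPN, 6 each at ITGA4 and SELPLG, 5 at ICAM3 and 2 at ITGB1. CD44 led both orders, and ITGA4 stood high for GATA3 but in the middle for BHLHE40. As few as 0.235% of protein-coding genes had as many GATA3 regions as CD44, and 0.599% as many as ITGA4. For BHLHE40, 0.369% of genes had as many regions as CD44, 1.78% as many as ITGAL and 63.1% as many as ITGB1. H3K27ac regions numbered 30 at CD44, 28 at ITGA4, 23 at ITGB2, 21 at ITGAL, 15 each at ITGB1 and ITGB7, 14 at SPN, 12 at SELPLG and 8 at ICAM3.

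Many of these H3K27ac regions were weak, though a smaller share than in the whole list. The H3K27ac list is named as pooled over the samples and reaches down to a −log10 q of 0.5, and 95 of the 166 regions were under a −log10 q of 5. The 71 at or above 5 were 42.8% of the members' regions, against 25.1% of the whole list. At or above 5, the counts were 15 at ITGAL, 10 each at ITGB2 and CD44, 8 at SPN, 7 each at ITGA4 and ICAM3, 5 each at ITGB7 and SELPLG and 4 at ITGB1. ITGA4 thus had 28 regions of which 7 passed, whereas ICAM3 had 8 of which 7 passed. The median was 7 for the members and 3 for protein-coding genes.

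By median signal the members' regions were close to their lists, but for H3K27ac more of them were strong. Strength is given as the signal value of the authors' list, together with its rank, where rank 1 is the strongest region of that list. What this signal is relative to is not given in the sources used here, so it is not compared between lists. The median GATA3 signal was 11.9 in the windows and 11.2 in the whole list, the median BHLHE40 signal 8.80 and 9.35, and the median H3K27ac signal 3.21 and 3.31. The GATA3 counts include 2 regions under a −log10 q of 5, near the bottom of the list. They were 1 in the ITGA4 window (signal 1.75, rank 29007 of 29009) and 1 in the CD44 window (signal 2.26, rank 28970). Of the 62 GATA3 regions 7 were in the top 10% of their list by signal, against 10.0% of the whole list by construction, and of the 68 BHLHE40 regions 7 were, again against 10.0%. Of the 166 H3K27ac regions 30 were (18.1%), against 10.0% of that list. That list is not limited to windows around genes, and the share over the windows of all protein-coding genes was not taken. The same holds for the share at a −log10 q of at least 5 given above.

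The windows reach into other genes, so a region counted for a member need not lie in it. Of the GATA3 summits 17 of 62 were inside the member's record, and the member was the nearest protein-coding record, called nearest throughout, for 38. Of the BHLHE40 summits 14 of 68 were inside, and the member was nearest for 32. H3K27ac summits were inside for 54 of 166, and the member was nearest for 98. The window of ICAM3 held 7 other protein-coding genes, that of ITGAL 6 and that of ITGB7 5, whereas those of ITGA4, ITGB1, CD44 and SPN held 1 each. Which gene a distal region acts on was not tested.

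**Figure D2:**
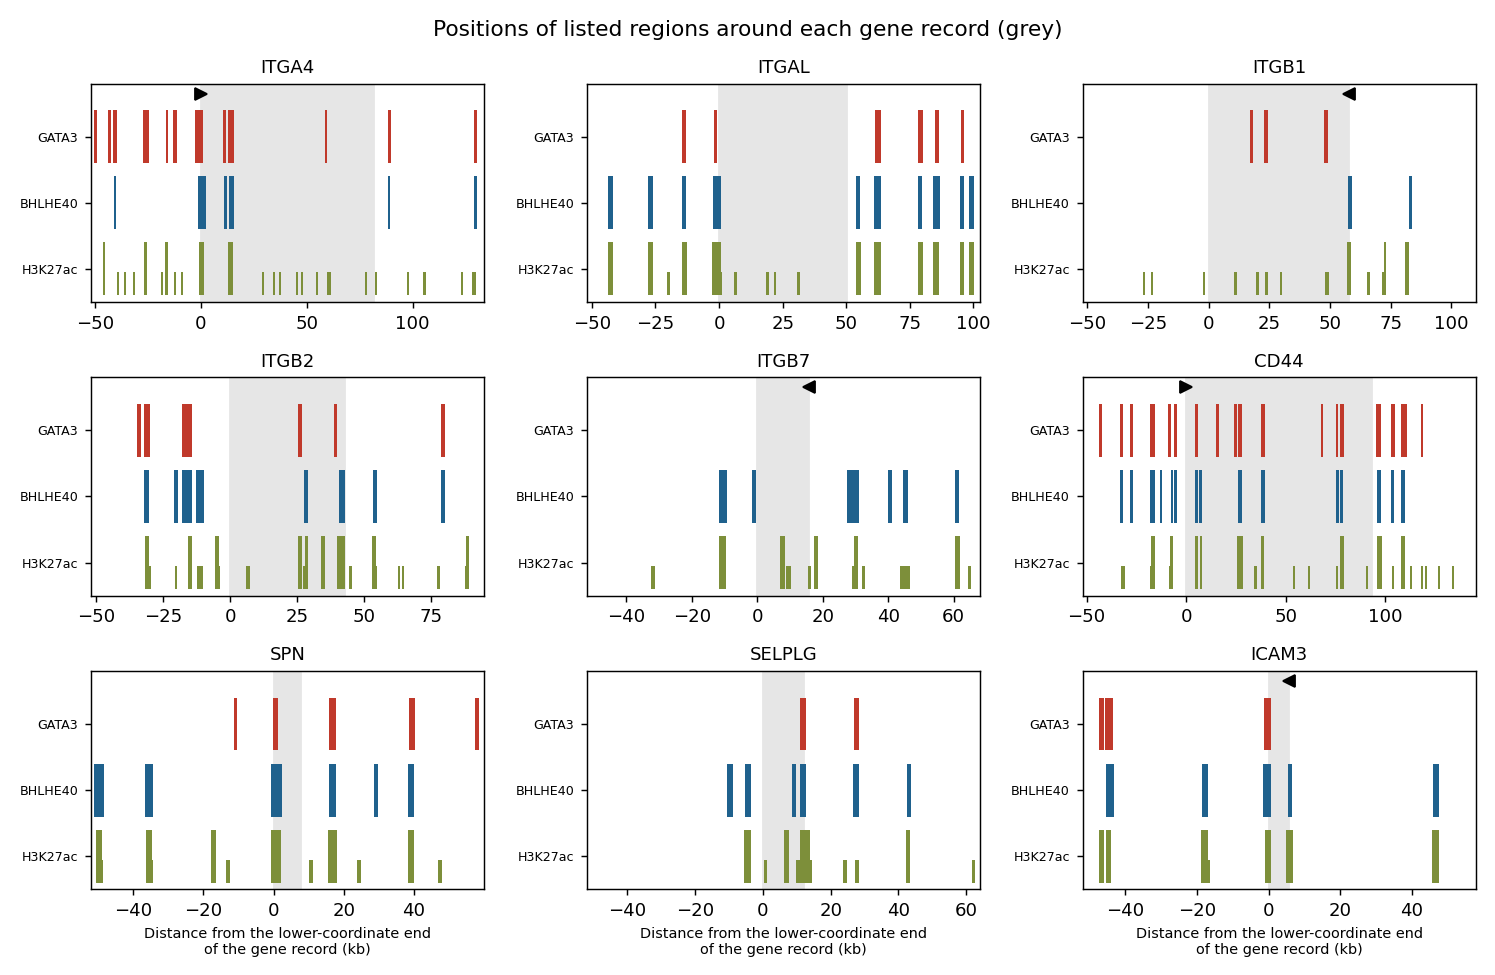
Position of each region along the window of each gene, in kb from the lower-coordinate end of its record (grey), with arrowheads at listed starts and short H3K27ac bars for a −log10 q under 5; bars are widened to be visible. GATA3 regions are spread before, inside and beyond the CD44 record, cluster before the start of ITGA4 and are missing from the ITGB7 window.

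The maps of regions along each window show that the 2 alpha subunits were unlike. ITGA4 (gene ID 3676, chr2:181457205-181538940, plus strand) encodes the alpha 4 chain. Its start was covered by regions of all 3 lists. The GATA3 summit was 571 bp and the BHLHE40 summit 608 bp before the listed start, 37 bp apart, and the H3K27ac summit was 279 bp before it. The BHLHE40 region there (chr2:181456361-181459102, signal 19.0, rank 3600) was the strongest BHLHE40 region of the window, the GATA3 region was moderate (chr2:181456161-181457694, signal 10.7, rank 15549), and the H3K27ac region (chr2:181456618-181458058, signal 8.74, rank 3758) was again the strongest of its list in the window.

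Away from the start, 9 GATA3 regions lay between 2292 and 49778 bp below the record, a stretch in which ITGA4 was the nearest protein-coding gene. The strongest of them (chr2:181416229-181416997, signal 54.2, rank 1255) lay 40615 bp below the record. A weak BHLHE40 region (signal 5.27, rank 23677) had its summit 19 bp away, and no H3K27ac region overlapped. Inside the gene a GATA3 region (chr2:181470574-181472461, signal 27.4, rank 4101) had its summit 14063 bp after the start and 5 bp from that of a BHLHE40 region of signal 8.87. These regions overlapped H3K27ac, but neither summit was inside an H3K27ac region. The last 2 shared regions lay above the record, inside the neighbouring gene CERKL, at 7178 bp (GATA3 signal 20.5, BHLHE40 signal 5.61) and 47988 bp (6.22 and 5.11). In all, 5 of the 15 GATA3 regions overlapped a BHLHE40 region and 10 did not, whereas 5 of the 6 BHLHE40 regions overlapped GATA3.

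ITGAL (gene ID 3683, chr16:30472742-30523185), the alpha chain of LFA-1, had no GATA3 or BHLHE40 summit inside its record. The summits of its 6 GATA3 and 11 BHLHE40 regions all lay outside, each GATA3 region overlapped BHLHE40, and each of the 17 overlapped H3K27ac with a −log10 q of at least 5. At the lower end of the record a BHLHE40 summit lay 198 bp outside (chr16:30471632-30472935, signal 6.93, rank 19173) and an H3K27ac summit 62 bp inside (signal 3.91, rank 25890). A shared pair lay just beyond, with the GATA3 summit 1567 bp from the record (chr16:30470975-30471505, signal 12.4) and 12 bp from a BHLHE40 summit (signal 20.3, rank 3126).

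The strongest regions around ITGAL were nearer to other genes. The GATA3 region of rank 117 (chr16:30551243-30552496, signal 127) lay 28783 bp above the record, with ZNF764 nearest, and its summit was 4 bp from that of a BHLHE40 region of signal 17.3. The strongest BHLHE40 region (chr16:30458535-30459276, signal 41.6, rank 598) lay 13824 bp below, with SEPHS2 nearest, and overlapped a GATA3 region of signal 12.7. The strongest H3K27ac region (chr16:30535013-30536051, signal 11.2, rank 1704) was at the ends of ZNF747 and ZNF747-DT. The other shared regions were at ZNF747 (GATA3 signal 6.07, BHLHE40 signal 11.6), at the end of ZNF764 (7.65 and 12.9) and near ZNF688 (4.08 and 6.36). ITGAL itself was nearest for 1 of its 6 GATA3 and 2 of its 11 BHLHE40 regions.

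The 3 beta subunits differed as much. ITGB1 (gene ID 3688, chr10:32900318-32958230, minus strand), the beta 1 chain shared by many integrins, had the fewest BHLHE40 regions of the members. Its 3 GATA3 regions were all inside the gene, at 9620, 34218 and 40565 bp after the start. The strongest (chr10:32923367-32924261) had a signal of 21.9 and rank 5781, and the others had signals of 12.8 and 6.00. None of them overlapped BHLHE40 or H3K27ac with a −log10 q of at least 5, and 2 overlapped a weaker H3K27ac region. BHLHE40 was listed at the start (chr10:32958160-32958743, signal 10.9, rank 10378), where the capitals in the printed promoter mark its summit, together with the strongest H3K27ac region of the window (chr10:32958061-32958712, signal 6.83, rank 7084). The other BHLHE40 region (signal 5.19) lay 25156 bp before the start, at the end of ITGB1-DT. ITGB1 thus had regions of both factors and none in common.

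ITGB2 (gene ID 3689, chr21:44885953-44928815), the beta chain of LFA-1, had the single strongest GATA3 region of the 9 windows. It ranked 75 in its list (chr21:44869912-44871372, signal 140) and its summit was 19 bp from that of the BHLHE40 region of rank 362 (chr21:44870143-44871250, signal 50.3), and both overlapped H3K27ac. The pair lay 15301 bp below the record, inside PTTG1IP, which was the nearest gene. PTTG1IP held 2 more shared regions, with GATA3 signals of 14.7 and 26.6 and BHLHE40 signals of 17.2 and 4.56, and the gene SLX9 on the other side held another (7.24 and 14.5). Inside ITGB2 the factors were listed apart, with 2 GATA3 regions (signals 10.2 and 8.86) and 2 BHLHE40 regions (6.83 and 13.5) that did not overlap. The strongest H3K27ac region of the window (chr21:44927749-44928408, signal 8.60, rank 3954) had its summit 865 bp inside the higher end of the record, where ITGB2-AS1 also lies. The BHLHE40 summit nearest that end was 1122 bp inside, and the nearest GATA3 summit 3572 bp inside.

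ITGB7 (gene ID 3695, chr12:53191323-53207251, minus strand), the beta chain of gut-homing integrins, was the member without a GATA3 region. The GATA3 summit nearest its start was 88334 bp away (signal 6.67, rank 25553). Its promoter is the one printed above with 2 GATA motif matches, a motif about as common in promoters with a GATA3 summit as without. No BHLHE40 summit lay inside the record either, and ITGB7 was nearest for 0 of its 7 BHLHE40 regions. The strongest of these (chr12:53179944-53181693, signal 28.9, rank 1449) coincided with the strongest H3K27ac region (chr12:53179950-53181527, signal 12.9, rank 973) at the ends of CSAD and ZNF740, 10712 bp below the record. At the start itself there was a weak H3K27ac region with its summit 9 bp inside, of signal 3.27, rank 58791 and −log10 q 3.87.

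CD44 (gene ID 960, chr11:35139171-35232402, plus strand), the hyaluronan receptor, had the highest count of each list among the members, in the longest of the windows, and yet no summit at its start. Per 100 kb it had 10.4 GATA3, 7.76 BHLHE40 and 15.5 H3K27ac regions, and for H3K27ac ITGB2 had more, at 16.1. By this measure 0.195% of genes had as many GATA3 regions as CD44, and 2.36% as many BHLHE40 regions. The nearest summits were 5141 bp (GATA3), 5152 bp (BHLHE40) and 4961 bp (H3K27ac) inside the gene, in 1 place that all 3 lists shared. The GATA3 region there had a signal of 9.64 and the BHLHE40 region 15.6, and the H3K27ac region (chr11:35143828-35144773, signal 7.23, rank 6203) was the strongest of the window. The promoter printed for CD44 held no summit of any list.

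The 2 strongest GATA3 regions of CD44 lay before the start and beyond the end of the gene, and each overlapped BHLHE40. The strongest BHLHE40 region also lay before the start. BHLHE40 regions inside the gene, of signal 29.9 and 27.5, were stronger than the one beyond its end. GATA3 (chr11:35121608-35123012, signal 70.6, rank 678) and BHLHE40 (chr11:35121537-35122887, signal 59.8, rank 215) had summits 5 bp apart, 16664 bp before the start. Another pair (GATA3 chr11:35235426-35236650, signal 62.3, rank 922; BHLHE40 signal 23.3, rank 2275) lay 3665 bp beyond the record with summits 11 bp apart. Both overlapped H3K27ac, and CD44 was the nearest protein-coding gene of both.

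In all, 12 of the 20 GATA3 regions of CD44 overlapped BHLHE40, and 12 of its 15 BHLHE40 regions overlapped GATA3. Inside the gene, beside the pair at 5141 bp, there were 4 more. Their GATA3 signals were 33.7, 14.0, 5.51 and 19.3 at 26688, 38504, 75788 and 77933 bp after the start, and their BHLHE40 signals were 29.9, 27.5, 8.24 and 8.52. All 5 pairs inside the gene overlapped H3K27ac. Before the start, 3 further pairs had GATA3 signals of 12.0, 14.5 and 33.0 and BHLHE40 signals of 6.05, 9.41 and 8.34, at 32423, 27342 and 5391 bp. Beyond the gene the last 2 had GATA3 signals of 16.3 and 41.9 and BHLHE40 signals of 10.1 and 6.21, with SLC1A2 as the nearest protein-coding gene.

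The 2 mucin-type genes each had all 3 lists at 1 end. SPN (gene ID 6693, chr16:29662963-29670876) had summits of all 3 lists within 1 kb of the lower end of its record. The GATA3 summit (chr16:29663263-29663739, signal 9.84) was 593 bp inside and 18 bp from the BHLHE40 summit (chr16:29662615-29663848, signal 9.57), and the nearest H3K27ac summit was 177 bp outside (signal 3.34, rank 48418). A stronger H3K27ac region overlapped the GATA3 region, with its summit 402 bp inside (chr16:29663222-29664673, signal 6.00, rank 9288). The strongest GATA3 region (chr16:29679260-29680278, signal 36.6, rank 2595) was at the end of QPRT, 8959 bp above the record, and its summit was 23 bp from that of a BHLHE40 region of signal 14.2. Another shared place, 31728 bp above, had a GATA3 signal of 10.5 and a BHLHE40 signal of 8.93. The strongest BHLHE40 and H3K27ac regions of the window (chr16:29612321-29614175, signal 16.5, and chr16:29612933-29613759, signal 8.45) were at the ends of SMG1P2 and SLC7A5P1, near the window's edge. SPN and ITGAL lie on the same chromosome, 801866 bp apart, and their windows share no region.

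SELPLG (gene ID 6404, chr12:108621895-108633894) also had all 3 lists at 1 end of its record, the higher. The GATA3 summit was 41 bp outside (chr12:108633304-108634256, signal 6.77, rank 25298), the BHLHE40 summit 30 bp inside (chr12:108633274-108634278, signal 13.5, rank 7116) and the H3K27ac summit 211 bp inside (signal 3.60, rank 35250). The GATA3 region was among the weaker of its list. The other GATA3 region (chr12:108649073-108649778, signal 20.0) was inside CORO1C, 15492 bp above, and overlapped a BHLHE40 region of signal 8.13. The strongest BHLHE40 and H3K27ac regions of the window coincided 4372 bp below the record (chr12:108617042-108617882, signal 13.8, and chr12:108616710-108617907, signal 7.16), with SELPLG nearest.

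ICAM3 (gene ID 3385, chr19:10333776-10339624, minus strand), a ligand of LFA-1 on leukocytes, lies in a cluster with ICAM1, ICAM4 and ICAM5. At its start a weak BHLHE40 region (chr19:10339479-10339942, signal 5.03, rank 24190), marked in the printed promoter, overlapped an H3K27ac region (chr19:10339186-10340273, signal 8.15, rank 4594). The strongest H3K27ac region of the 9 windows was at its downstream end, shared with the end of RAVER1 (chr19:10333100-10333950, signal 17.2, rank 305). GATA3 (signal 8.40) and BHLHE40 (signal 7.79) were both listed there with summits 30 bp apart. The other 3 GATA3 regions were at the ICAM cluster more than 44 kb below the record. The strongest (chr19:10288502-10289171, signal 25.6, rank 4543) was at the end of ICAM4, and it and a neighbour of signal 15.5 at the end of ICAM5 overlapped the same BHLHE40 region (signal 8.84). ICAM3 was nearest for 0 of its 4 GATA3 and 1 of its 5 BHLHE40 regions.

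**Figure D3:**
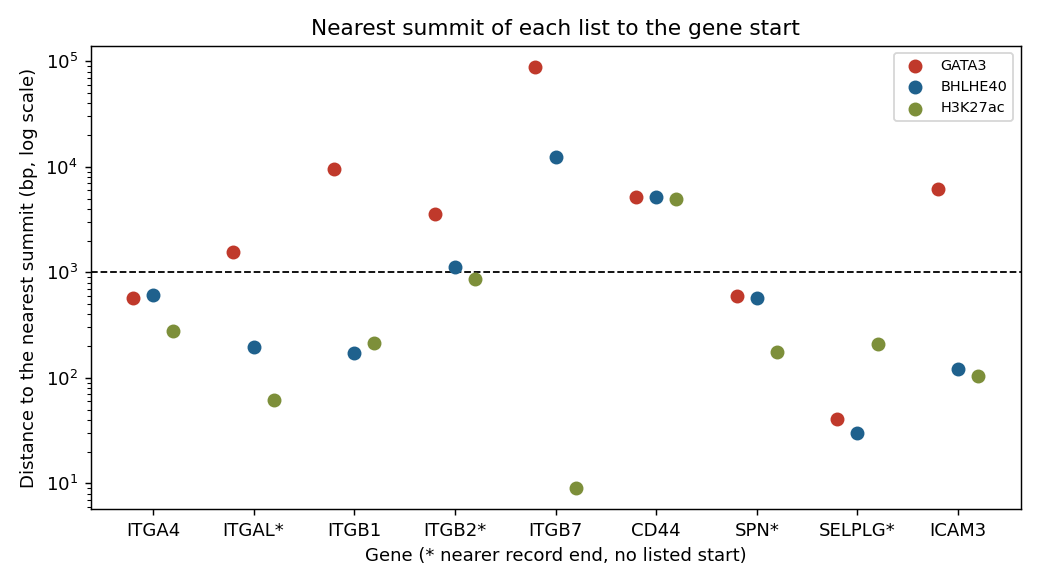
Distance in bp (log scale) from the start of each gene to the nearest summit of each list, with a dashed line at 1 kb; an asterisk marks genes without a listed start, for which the nearer record end was used. H3K27ac points lie under the line for 8 genes, and the 3 points of CD44 all lie near 5 kb.

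The plot of distances to the start sorts the members into 4 classes. Where no start was listed, either end of the record was accepted, and for comparison the same was done for every gene without one. A GATA3 summit lay within 1 kb of 3 of 9 members (ITGA4, SPN and SELPLG), against 19.3% of protein-coding genes. For BHLHE40 it was 6 of 9 (these 3 with ITGAL, ITGB1 and ICAM3), against 43.5%. For H3K27ac it was 8 of 9, all but CD44, against 52.4%, and 7 of 9 at a −log10 q of at least 5, where ITGB7 fell away, against 46.0%. With 9 genes these shares are coarse, and they are given as counts beside the background only.

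The 5 members with a listed start had GATA3 at 1, BHLHE40 at 3, H3K27ac at 4 and H3K27ac with a −log10 q of at least 5 at 3. The shares over the 15838 genes with a listed start were 20.5%, 45.8%, 54.3% and 48.4%. For the 4 members taken by record ends the counts were 2, 3, 4 and 4, and the shares over 4199 such genes were 14.7%, 34.9%, 44.9% and 36.8%. Of the 3 members with GATA3, 1 kept it within 500 bp (SELPLG, at 41 bp) and 1 at a GATA3 score of at least 830 (ITGA4), so the count of 3 rests on the distance and score accepted.

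By which lists had a summit within 1 kb of the start, the members most like each other and the rest were as follows. ITGA4, SPN and SELPLG had all 3 lists, 3 of 9 members against 17.3% of genes (3473 genes). Among the other adhesion genes this class held ITGA2B, ITGAV, ICAM2, ICAM5, RAP1B, GCNT1 and ADAM17. ITGAL, ITGB1 and ICAM3 had BHLHE40 with H3K27ac, as did 4870 genes (24.3%), among them ITGA3, ITGA6, ITGA7, CD58, CD99, TLN1, APBB1IP, RASGRP2, CYTH1, VCL, ST3GAL4 and ADAM10. ITGB2 and ITGB7 had H3K27ac alone, as did 1922 genes (9.59%), among them ITGA1, ITGB5, ICAM1, SELP, CD2, CD226, FERMT3, EZR and RDX. CD44 had none of the lists, as did 9070 genes (45.3%). At 1 kb the pairs that form integrins were not in 1 class: ITGA4 differed from ITGB1 and ITGB7, and ITGAL from ITGB2. These classes depend on the distance. At 500 bp ITGA4 (factor summits at 571 and 608 bp) and SPN (593 and 575 bp) would keep H3K27ac alone, as ITGB7 did. ITGB2, with its H3K27ac summit at 865 bp, would have none of the lists at 500 bp. The BHLHE40 summit of ITGB2 missed 1 kb at 1122 bp.

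**Figure D4:**
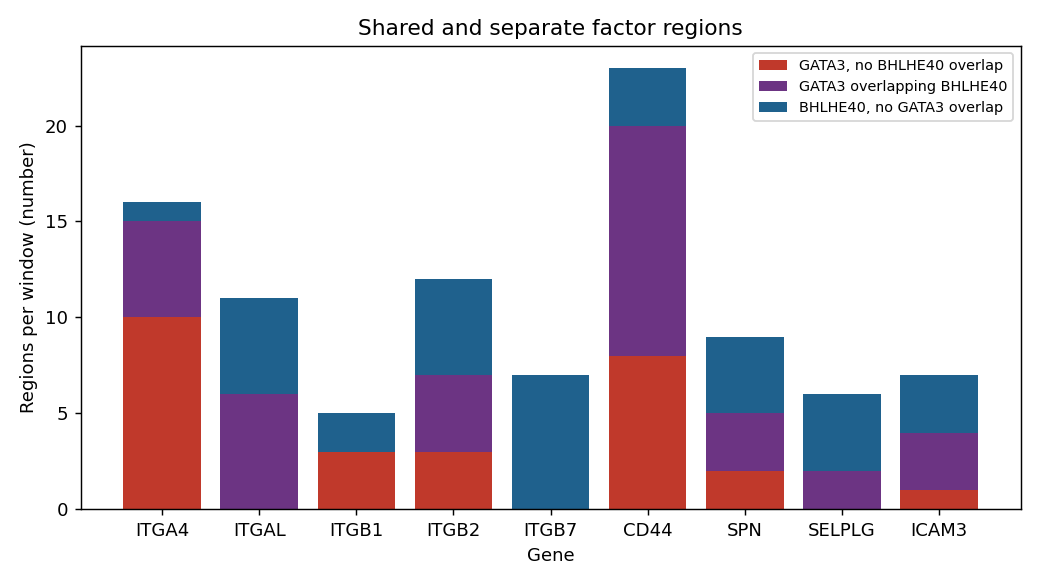
Number of regions per window split into GATA3 regions without BHLHE40 overlap, GATA3 regions that overlap BHLHE40, and BHLHE40 regions without GATA3 overlap. ITGAL and SELPLG have no GATA3 region without BHLHE40, ITGB1 has no shared region, and ITGA4 has 10 GATA3 regions alone.

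How far the factors shared regions is shown in the stacked bars of shared and separate regions. Over the 9 windows, 35 of 62 GATA3 regions overlapped a BHLHE40 region, or 56.5% (Wilson 95% interval 44.1 to 68.1, which covers counting error only), against 48.7% of the whole list. Of 68 BHLHE40 regions 34 overlapped GATA3, or 50% (38.4 to 61.6), against 53.0%. Both intervals include the share of the whole list. The members differed widely: the shared GATA3 regions were 12 of 20 at CD44, 6 of 6 at ITGAL, 5 of 15 at ITGA4, 4 of 7 at ITGB2, 3 of 5 at SPN, 3 of 4 at ICAM3, 2 of 2 at SELPLG and 0 of 3 at ITGB1.

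GATA3 regions in the windows overlapped H3K27ac in 40 of 62 cases, or 64.5% (52.1 to 75.3), against 49.1% of the whole list. With H3K27ac at a −log10 q of at least 5 it was 31 of 62, or 50% (37.9 to 62.1), against 33.4%. Both intervals lay above the share of the whole list, but regions of 1 window are not independent, so these intervals are too narrow. The whole list is also not limited to windows around genes, and the share over the windows of all protein-coding genes was not taken. With the GATA3 summit required inside the H3K27ac region the share was 48.4%, against 33.3% of the whole list by the same rule. For BHLHE40 it was 53 of 68, or 77.9% (66.7 to 86.2), against 76.4%, and 45 of 68 at a −log10 q of at least 5, or 66.2% (54.3 to 76.3), against 60.2%. Both BHLHE40 intervals include the share of the whole list. With the BHLHE40 summit inside the H3K27ac region it was 61.8%, against 55.4% of the whole list by the same rule.

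A larger share of the shared than of the separate GATA3 regions overlapped H3K27ac, in the windows and in the whole list. Of the 35 GATA3 regions shared with BHLHE40, 29 overlapped H3K27ac (82.9%, against 77.4% of shared regions in the whole list), and of the 27 without BHLHE40, 11 did (40.7%, against 22.3%). Of the 34 BHLHE40 regions without GATA3, 25 overlapped H3K27ac (73.5%, against 75.1% of such regions in the whole list). Shared GATA3 regions were also stronger, with a median signal of 14.7 against 9.91 for those alone, as over the whole list (13.9 and 10.1).

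In shared regions the summits were close. The median distance between the GATA3 and BHLHE40 summits was 25 bp over the 35 regions, from 4 bp near ITGAL to 732 bp at the ICAM cluster, and 35 bp over the whole list. It was within 50 bp in 25 of the 35 (71.4%, against 61.5% of shared regions in the whole list). At ITGA4 all 5 distances were within 50 bp, and at ICAM3 1 of 3 was.

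**Figure D5:**
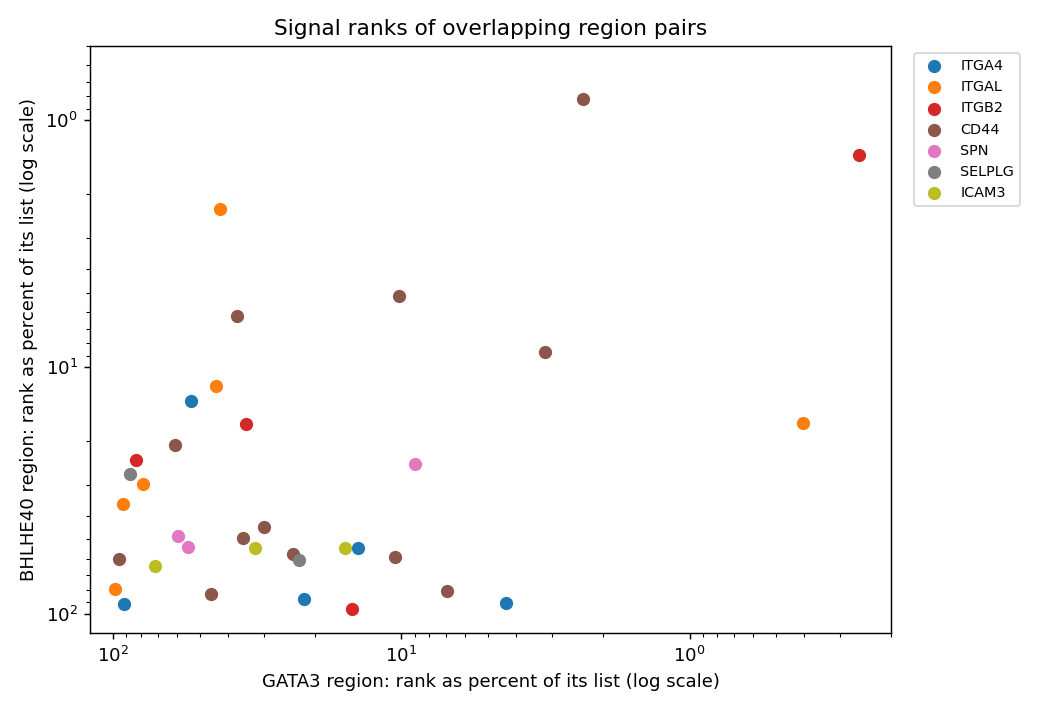
Each point is a GATA3 region and the BHLHE40 region it overlaps, placed by rank in its own list as a percent of that list (both axes on a log scale, strongest at the top right). The pair inside PTTG1IP near ITGB2 and the pair before CD44 stand at the top right, and the ITGA4 pair at a GATA3 rank of 4.33% has a BHLHE40 rank of 90.4%.

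The plot of paired ranks shows that a strong region of one factor was not always strong for the other. The pair near ITGB2 was at 0.259% of the GATA3 and 1.38% of the BHLHE40 list, and that before CD44 at 2.34% and 0.820%. The strongest GATA3 region near ITGAL was at 0.403% of its list, and its BHLHE40 partner at 16.9%. The strongest one before ITGA4 was at 4.33%, and its partner at 90.4%. The pair 13.8 kb below ITGAL ran the other way, at 42.6% for GATA3 and 2.28% for BHLHE40.

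The members were set beside 55 other genes of integrins, adhesion ligands and their control. A GATA3 summit lay within 1 kb of 8 of the 55 starts (14.5%), a BHLHE40 summit of 20 (36.4%), an H3K27ac summit of 30 (54.5%) and one with a −log10 q of at least 5 of 21 (38.2%). These shares are near or below those of all protein-coding genes given above. Of the 55, 25 had no summit of any list at the start, against 45.3% of protein-coding genes, and 7 had all 3, against 17.3%. Their windows held medians of 4 GATA3, 5 BHLHE40 and 14 H3K27ac regions. The medians were 5, 7 and 15 for the members and 2, 2 and 8 for protein-coding genes.

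By role, the 21 other integrin subunits had GATA3 at 2 starts, BHLHE40 at 5 and H3K27ac at 7, of which 2 reached a −log10 q of 5. For these and the roles below, the shares over all protein-coding genes were 19.3%, 43.5% and 52.4%, and 46.0% at that q. Of the 21 subunits, 14 had no list at the start, against 45.3% of protein-coding genes. Some of them had few regions, such as ITGA8 (0 GATA3, 0 BHLHE40 and 3 H3K27ac regions) and ITGB8 (1, 0 and 7). ITGAM (4, 0 and 3) and ITGAX (3, 2 and 1) had few H3K27ac regions. For GATA3 both were above the median of 2 over protein-coding genes. Others had more, such as ITGAE (7 GATA3, 12 BHLHE40 and 24 H3K27ac regions) and ITGB4 (7, 7 and 18). The 14 ligands and receptors had GATA3 at 3, BHLHE40 at 5 and H3K27ac at 10 starts, 7 of them at a −log10 q of at least 5. The 12 genes that activate integrins from within the cell had GATA3 at 1, BHLHE40 at 6 and H3K27ac at 7 starts. All 7 reached that q. TLN1, which encodes talin, had 0 GATA3 and 7 BHLHE40 regions in its window, the same numbers as ITGB7. Of the 5 genes for selectin-ligand glycosylation and shedding, GATA3 was at 2, BHLHE40 at 4 and H3K27ac at 4 starts, all 4 at that q. FUT7, which adds fucose to selectin ligands, had none of the lists at its start. The 3 linkers EZR, RDX and MSN join membrane proteins such as CD44 to actin. They had H3K27ac at 2 starts, 1 of them at that q, and neither factor at any.

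The labelled cell type was checked on H3K27ac. A region reached within 1 kb of the start of 9 of 9 T-cell and Jurkat genes (such as CD3D, CD3E and TAL1), against 53.5% of protein-coding genes, of 1 of 4 B-cell genes, and of 0 of 4 myeloid, 0 of 3 erythroid and 0 of 3 epithelial and liver genes. By a summit within 1 kb it was 6 of 9 T-cell and Jurkat genes, without CD3G, LCK and CD5, and the other counts were the same.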

How the data were processed

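Lists of ChIP-seq regions for 3 Ctrl_LV groups of 2 samples each were used. Per the submitters' processing notes the tools included bcl2fastq 2.20 and MACS2 with the hg38 build; the aligner, filters and use of input are not given in the sources used here. In the deposited factor lists, named for an irreproducible discovery rate (IDR) of 0.05, the authors' score begins at 540. The signal value per region and its −log10 q are the authors' deposited values, used only to describe, rank or filter regions within 1 list. The H3K27ac list is named as pooled. No line overlapped another of its list.

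A region was counted when it overlapped the window by at least 1 bp. Gene records and promoters came from RefSeq GRCh38.p14, and coordinates are 1-based. The gene table gives no strand: starts came from the promoter table for 15838 protein-coding genes (5 members) and either record end was used for 4199 (4 members). No genome sequence was used, so motifs were searched in promoters only. Counts, shares, ranks and distances were described beside the same over all protein-coding genes or the whole list, with Wilson 95% intervals for counting error. Nothing was tested, since 1 list stands for both samples. The rule for named genes took all 9 members, with their strongest region per list, those at the start and those shared by both factors, the genes these lay in or at, and a list of 55 adhesion genes. Members and lists were chosen with earlier results of these data known. Alternatives were a factor score of at least 830, an H3K27ac −log10 q of at least 5, windows of 10 and 100 kb, starts within 500 and 2500 bp, other definitions of overlap, and each member left out. The overlap functions were tested on simulated data. Scripts ran in Python 3.11.15, with pandas 2.3.3 and numpy 2.4.6 for tables, scipy 1.17.1 for intervals and matplotlib 3.10.9 for plots.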

Additional observations from a re-analysis of the deposited data

How the results depend on the processing

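No paired analysis was possible because each group's 2 samples share 1 list, and for the same reason leaving out each replicate was not run. Of 96 alternatives over 12 results, 83 stayed within 1.5 times a count or covered length, or within the interval of a share or median. The other 13 were these. Windows of 10 kb held 29 GATA3, 30 BHLHE40 and 80 H3K27ac regions, and windows of 100 kb held 109 BHLHE40 and 275 H3K27ac regions. At a −log10 q of 5 or more, 71 H3K27ac regions were left. GATA3 lay at the start of 1 member within 500 bp and of 1 member at a score of at least 830. The share of GATA3 regions on H3K27ac was 50% at a −log10 q of at least 5 and 48.4% with the summit inside. That of BHLHE40 regions was 66.2% and 61.8%, and 88.2% at a score of at least 830. The share over the whole BHLHE40 list at that score was not taken. Leaving out each member in turn gave 51.8 to 63.8% of GATA3 regions on BHLHE40, 41.5 to 55.7% of BHLHE40 regions on GATA3, 60.7 to 70.2% and 73.7 to 80.6% of them on H3K27ac, and summit distances of 22.5 to 30 bp. None of these runs is among the 13, but each kept most of the same regions, so staying within the full interval says little. The cause of the 13 moves was not tested beyond their own construction. With 9 genes and 1 list per target, and depth unknown, a region that is not listed may still be bound, and none of these values measures expression.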
